A study of Homo sapiens with 12 samples.

Results

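The genes described here are 10 readers of N6-methyladenosine (m6A) outside the YTH family: IGF2BP1, IGF2BP2, IGF2BP3, FMR1, FXR1, FXR2, HNRNPA2B1, HNRNPC, RBMX and PRRC2A. They were taken by symbol from the 60662 genes of the RNA-seq count files and the 12224 genes of the series table, and all 10 were present in both. The samples were HEK293T cells, an established human embryonic kidney line of wild-type genotype, in 12 libraries. The STM2457 arm was kept for 6 h in 20 µM STM2457, which blocks the catalytic subunit METTL3 of the m6A writer, in 0.2% DMSO, and the DMSO arm in 0.2% DMSO alone for the same time. In both arms another 10% of fetal bovine serum was given 1 h before lysis to raise translation, and cycloheximide, which stalls elongating ribosomes, acted at 100 µg/ml for the last 3 min. RNA-seq had 4 libraries per arm, from poly(A)-selected RNA, and ribosome profiling (Ribo-seq) had 2 libraries per arm, from ribosome-protected fragments of 26 to 34 nt. Every library came from this 1 cell line at 1 dose and 1 time, and m6A itself is not among the measurements. The comparison asks how the RNA level, the ribosome footprints and the footprints per RNA of each reader differed after inhibition of the m6A writer.

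m6A is placed on nascent mRNA by a complex around METTL3 and METTL14, and its effects depend on the proteins that then bind the RNA. YTH proteins hold the methylated base in a dedicated pocket, whereas the readers here bind RNA through other domains. IGF2BP proteins use KH domains and are known for protecting their target mRNAs from decay. FMRP, the product of FMR1, and its paralogs FXR1 and FXR2 also carry KH domains, associate with ribosomes and are known as regulators of translation, and loss of FMRP causes fragile X syndrome. HNRNPC and RBMX are called indirect readers, because the methyl group loosens local RNA structure and so exposes the sequence they bind. HNRNPA2B1 has been described in the same way and in the processing of primary microRNAs, and PRRC2A has been described as an m6A reader in the mouse oligodendrocyte lineage.

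RNA-seq libraries held 43291730 to 51645739 counts, and the footprint reads recovered from the series table numbered 4039314 and 3898620 with STM2457 against 4711513 and 3198063 with DMSO. The 92 ERCC spike-in sequences took 0.415% to 0.466% of the counts with STM2457 and 0.389% to 0.408% with DMSO, and the highest share was that of STM2457 replicate 4. Scaling by the spike-ins in place of TMM factors (a scaling to the bulk of the genes) moved the median gene by -0.19 on the log2 scale, so each RNA change below is relative to the bulk of the genes unless spike-in scaling is named. CPM values here are counts scaled to library size adjusted by TMM factors, so they too are relative to the bulk of the genes. Of the markers of the HEK293 lineage, 6 of 6 (PAX2, LHX1, NEFM, INA, ENO2 and VIM) reached 1 CPM. The summed level of these markers was 868 to 903 CPM with STM2457 and 865 to 912 CPM with DMSO. Among 6 fibroblast markers COL1A1 alone reached 1 CPM, and HBB, a marker of red blood cells, was at 0. Markers of epithelial carcinoma lines reached 1 CPM in 4 of 5 cases, with KRT19 at 0, and summed to 54.2 to 55.0 CPM with STM2457 against 67.5 to 69.0 CPM with DMSO. Their part in the results was not tested.

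In RNA, 4 of the 10 readers passed the test, and the size of each change was small. FXR2 and IGF2BP3 fell, and RBMX and PRRC2A rose relative to the bulk of the genes. Over all 17807 genes tested 47.8% passed, 26.2% higher and 21.6% lower, so 4 of 10 is close to the share of genes in general. The median change over the 10 readers was 0.04, against 0.00 over all genes tested. In bulk libraries, less of an RNA in each cell and fewer cells that hold it cannot be told apart. The arms did not overlap in CPM for the same 4 readers, against 44.7% of all genes tested. The change of FXR2 was exceeded in size by 39.5% of the tested genes, that of IGF2BP3 by 60.5%, that of RBMX by 62.1% and that of PRRC2A by 63.9%. No reader therefore stood among the large changes of the experiment.

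**Figure D1:**
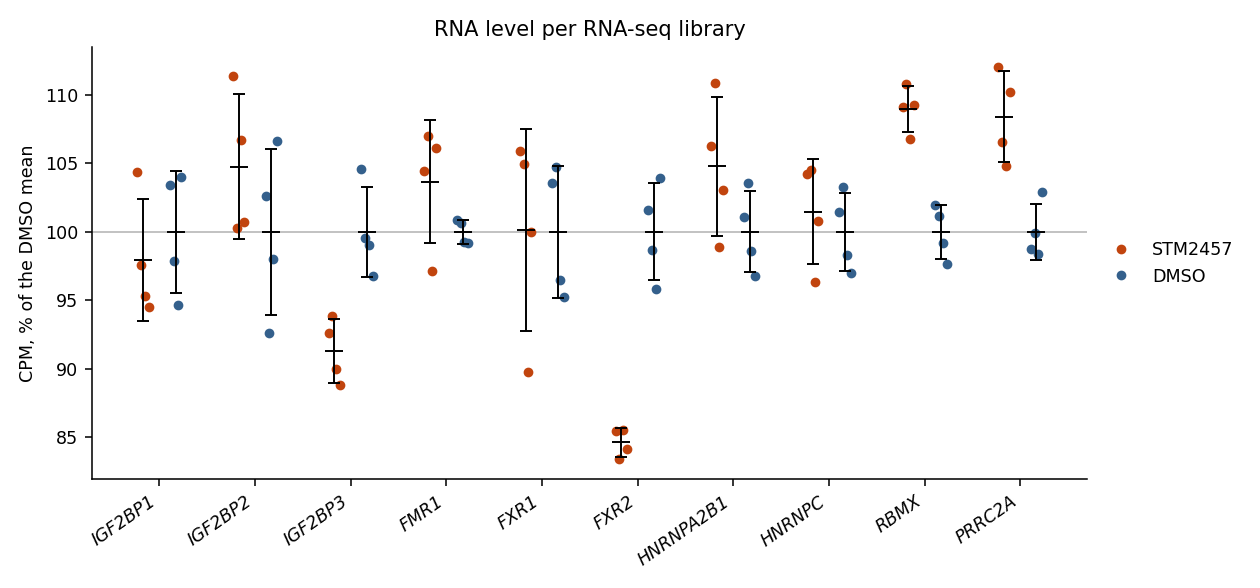
RNA level of the 10 readers in each RNA-seq library, as CPM in percent of the DMSO mean of the gene on a linear axis that does not start at 0, with STM2457 libraries left of DMSO libraries, 4 points per arm and bars for the mean and SD. The 4 STM2457 libraries of FXR2 and IGF2BP3 sit below the DMSO libraries and those of RBMX and PRRC2A above, while the arms of the other 6 genes overlap.

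IGF2BP3 was the only IGF2BP gene whose RNA passed the edgeR test. IGF2BP1 (ENSG00000159217.10, chromosome 17), IGF2BP2 (ENSG00000073792.15, chromosome 3) and IGF2BP3 (ENSG00000136231.14, chromosome 7) are oncofetal proteins, made in embryonic tissues and again in many tumors, and IGF2BP2 is also kept in adult tissues. IGF2BP3 had 59.2, 60.0, 57.5 and 56.7 CPM in the STM2457 libraries, against 66.8, 63.6, 63.3 and 61.9 CPM in the DMSO libraries. Every STM2457 library lay below every DMSO library. The means were 58.3 ± 1.49 CPM with STM2457 and 63.9 ± 2.10 CPM with DMSO (SD, n = 4 each), a log2 fold change of -0.13 (SE 0.03, adjusted p = 0.0051), or 0.913 times the DMSO level. IGF2BP3 passed with replicates 1 and 2 alone (log2 fold change -0.14, adjusted p = 0.00731) and with replicates 3 and 4 alone (-0.13, adjusted p = 0.0486), a split that the second principal component of the RNA-seq libraries separates.

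IGF2BP1, which is known to bind and localize ACTB mRNA, had 430.5, 402, 393 and 389.9 CPM with STM2457 and 427, 404, 391 and 429 CPM with DMSO. The arms covered the same range, and the log2 fold change was -0.03 (95% interval -0.11 to 0.05, adjusted p = 0.548). IGF2BP2 had 78.3, 70.4, 75.0 and 70.8 CPM with STM2457 and 72.1, 65.1, 68.9 and 74.95 CPM with DMSO. These arms overlapped as well, with a log2 fold change of 0.07 (95% interval -0.03 to 0.17, adjusted p = 0.265).

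At the ribosome none of the IGF2BP genes passed. IGF2BP1 had a footprint signal (the deposited normalized value of footprints on the gene) of 7019 and 6719 with STM2457 against 7438 and 7856 with DMSO, backed by 1630 to 2311 reads per library. Both STM2457 libraries lay below both DMSO libraries, yet the log2 fold change of -0.15 did not pass in limma (95% interval -0.33 to 0.02, adjusted p = 0.242). IGF2BP2 had 551 and 597 with STM2457 and 515 and 564 with DMSO, and IGF2BP3 had 703 and 609 with STM2457 and 583 and 708 with DMSO. Both of these pairs of arms overlapped, with log2 fold changes of 0.09 (95% interval -0.24 to 0.42) for IGF2BP2 and 0.03 (95% interval -0.29 to 0.35) for IGF2BP3. They had the fewest footprint reads of the 10 genes, 117 to 160 per library for IGF2BP2 and 147 to 185 for IGF2BP3.

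FXR2 (ENSG00000129245.11, chromosome 17), a paralog of FMRP prominent in the nervous system, had the largest RNA change of the 10 readers and the only footprint change that passed. Its RNA was at 75.3, 73.4, 75.3 and 74.1 CPM with STM2457, against 89.5, 86.9, 84.4 and 91.6 CPM with DMSO. All 4 STM2457 libraries were below the lowest DMSO library. FXR2 averaged 74.5 ± 0.931 CPM with STM2457 and 88.1 ± 3.12 CPM with DMSO (SD, n = 4 each), a log2 fold change of -0.24 (SE 0.03, adjusted p = 2.47e-05), or 0.846 times the DMSO level. The FXR2 change was -0.26 in replicates 1 and 2 and -0.24 in replicates 3 and 4, and it passed in both. With spike-in scaling of the same counts FXR2 RNA was at -0.44, where the median gene was at -0.19.

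The FXR2 footprint signal was 1307 and 1378 with STM2457, against 1767 and 1774 with DMSO, from 344 and 353 reads with STM2457 and 549 and 368 reads with DMSO. The arms were separate, and the difference between them was several times the difference within either arm. FXR2 footprints fell with a log2 fold change of -0.40 (SE 0.12, adjusted p = 0.0123 in limma). On the recovered reads edgeR gave -0.38 (adjusted p = 0.0160), where 15.8% of the genes passed. FXR2 was the 1 call among the 10 readers in footprints, where 15.7% of 10906 genes passed, 9.59% higher and 6.13% lower. The FXR2 footprint call was lost when DMSO replicate 1 (adjusted p = 0.0772), DMSO replicate 2 (adjusted p = 0.0958) or STM2457 replicate 1 (adjusted p = 0.0535) was left out, with log2 fold changes between -0.44 and -0.36 over the 4 omissions, and it was kept without STM2457 replicate 2. Each omission leaves 1 library in an arm, which is then assumed to vary like the pair in the other arm.

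**Figure D2:**
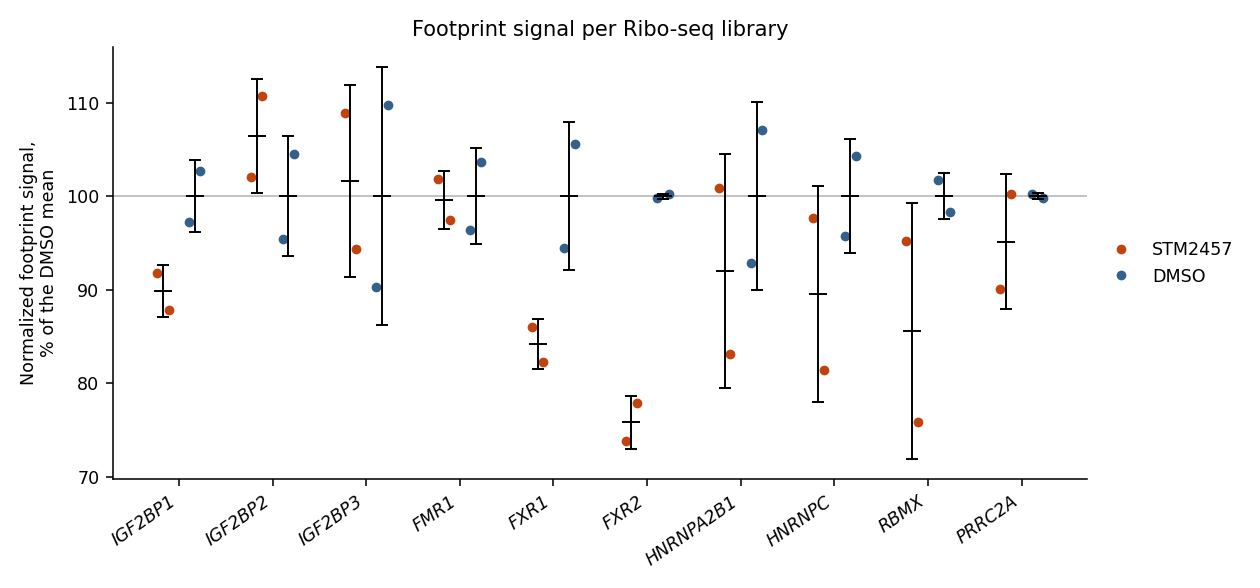
Deposited normalized footprint signal of the 10 readers in each Ribo-seq library, in percent of the DMSO mean of the gene on a linear axis that does not start at 0, with STM2457 libraries left of DMSO libraries, 2 points per arm and bars for the mean and SD. FXR2 shows the gap that passed the test, where the signal was 1307 and 1378 with STM2457 against 1767 and 1774 with DMSO, and for HNRNPA2B1, HNRNPC and RBMX STM2457 replicate 1 stands 20.0% to 25.5% above replicate 2.

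FMR1 (ENSG00000102081.14, chromosome X), which encodes FMRP, was nearly level in RNA. It had 149, 152, 138 and 151 CPM with STM2457 and 143, 143, 141 and 141 CPM with DMSO. STM2457 replicate 3 was the lowest of the 8 libraries and the other STM2457 libraries the highest, and the log2 fold change was 0.05 (95% interval -0.01 to 0.12, adjusted p = 0.187). Without STM2457 replicate 3, FMR1 passed at 0.08 (adjusted p = 0.00946). FMR1 footprints were at 2305 and 2206 with STM2457 and 2182 and 2347 with DMSO, a log2 fold change of -0.01 (95% interval -0.22 to 0.21).

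FXR1 (ENSG00000114416.18, chromosome 3), the paralog known for its role in muscle, had 125, 123, 106 and 118 CPM with STM2457 and 122, 123, 114 and 112 CPM with DMSO. The arms overlapped, and the RNA log2 fold change was 0.00 (95% interval -0.11 to 0.11, adjusted p = 0.970). FXR1 footprints were lower in both STM2457 libraries, at 2385 and 2280, than in the DMSO libraries, at 2617 and 2926. The FXR1 footprint change of -0.25 (95% interval -0.46 to -0.04) had an unadjusted p of 0.0214 and did not pass after adjustment over all genes (adjusted p = 0.104, limma).

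The starts of the 3 paralogs are shown because FXR2 moved in RNA where FMR1 and FXR1 did not pass. Each window runs from 250 bases before to 50 bases after the RefSeq gene start in GRCh38.p14, 5′ to 3′ on the gene's strand. Capitals mark GCGC, any 2 bases and GCGC again, the palindromic core of the motif known for the factor NRF1, which matches on both strands at once. The windows are chr17:7614848-7615147 on the minus strand for FXR2, chrX:147911669-147911968 on the plus strand for FMR1 and chr3:180912420-180912719 on the plus strand for FXR1.
FXR2: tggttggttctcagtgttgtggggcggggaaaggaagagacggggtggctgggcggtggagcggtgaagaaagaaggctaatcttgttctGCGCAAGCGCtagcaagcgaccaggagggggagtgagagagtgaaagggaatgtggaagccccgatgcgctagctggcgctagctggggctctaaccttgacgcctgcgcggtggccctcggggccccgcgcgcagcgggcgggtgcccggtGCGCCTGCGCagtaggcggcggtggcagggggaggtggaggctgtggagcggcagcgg
FMR1: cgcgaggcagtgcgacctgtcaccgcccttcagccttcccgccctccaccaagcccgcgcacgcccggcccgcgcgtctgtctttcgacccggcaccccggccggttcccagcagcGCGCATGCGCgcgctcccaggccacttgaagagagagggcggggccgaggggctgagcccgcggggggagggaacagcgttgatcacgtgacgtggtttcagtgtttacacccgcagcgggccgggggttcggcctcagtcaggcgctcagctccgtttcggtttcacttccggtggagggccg
FXR1: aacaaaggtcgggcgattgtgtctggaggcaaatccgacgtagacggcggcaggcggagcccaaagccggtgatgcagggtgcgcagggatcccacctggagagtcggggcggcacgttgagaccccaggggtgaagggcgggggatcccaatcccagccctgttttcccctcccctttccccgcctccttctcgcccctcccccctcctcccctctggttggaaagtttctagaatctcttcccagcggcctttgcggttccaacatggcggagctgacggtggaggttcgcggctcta
The motif occurs 2 times in the FXR2 window, 1 time in the FMR1 window and 0 times in the FXR1 window, and 8.32% of the 35116 windows of the same length in the RefSeq table hold it. GGGCGG on either strand, the core of the GC box, counted without regard to overlap with the first motif, occurs 3 times in FXR2, 3 times in FMR1 and 2 times in FXR1, with 45.0% of all windows holding it. G and C make up 67.7% of the FXR2 window, 71% of the FMR1 window and 64% of the FXR1 window. These matches describe the letters of the windows, and no binding was measured. RefSeq windows were matched for 9 of the 10 readers. The NRF1 core occurs 0 times in the windows of IGF2BP3, RBMX and PRRC2A, which also passed in RNA. It also occurs 0 times in those of IGF2BP2, HNRNPA2B1 and HNRNPC, which did not pass. A link between these matches and the RNA changes was not tested.

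A ratio of paralogs within a library does not depend on how libraries are scaled. The log2 ratio of FXR2 to FMR1 counts was -0.98, -1.05, -0.87 and -1.03 with STM2457 and -0.68, -0.72, -0.74 and -0.62 with DMSO. All 4 STM2457 ratios were below all 4 DMSO ratios, by 0.29 on average, with an exact permutation p of 0.0286 (two-sided), which is the smallest that 4 against 4 libraries can give. Adjusted over the 6 paralog ratios compared, it did not pass (p = 0.0857, exact permutation test). With that smallest p a lone separate ratio among 6 could not have passed, so the adjusted result decides nothing. The difference in the log2 ratio of FXR2 to FXR1 was -0.24, that of IGF2BP3 to IGF2BP2 was -0.20 and that of IGF2BP2 to IGF2BP1 was 0.10, each with an exact permutation p of 0.0571 before adjustment. For IGF2BP3 to IGF2BP1 the difference was -0.10 (exact permutation p = 0.114), and for FXR1 to FMR1 it was -0.05 (exact permutation p = 0.257). In footprints, with no test, the log2 ratio of FXR2 to FMR1 differed by -0.39 (STM2457 minus DMSO), that of FXR1 to FMR1 by -0.24 and that of FXR2 to FXR1 by -0.15. The footprint difference was 0.24 for IGF2BP2 to IGF2BP1, 0.18 for IGF2BP3 to IGF2BP1, where the RNA difference was negative, and -0.06 for IGF2BP3 to IGF2BP2. The arms of the last overlapped and those of the other 5 did not, where the footprint signal of 54% of all genes had separate arms. The ratios share genes and rest on 2 libraries per arm. For FXR2 to FXR1 the nearest values were -0.726 with STM2457 and -0.722 with DMSO. For IGF2BP3 to IGF2BP1 they were -3.464 with STM2457 and -3.471 with DMSO.

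**Figure D3:**
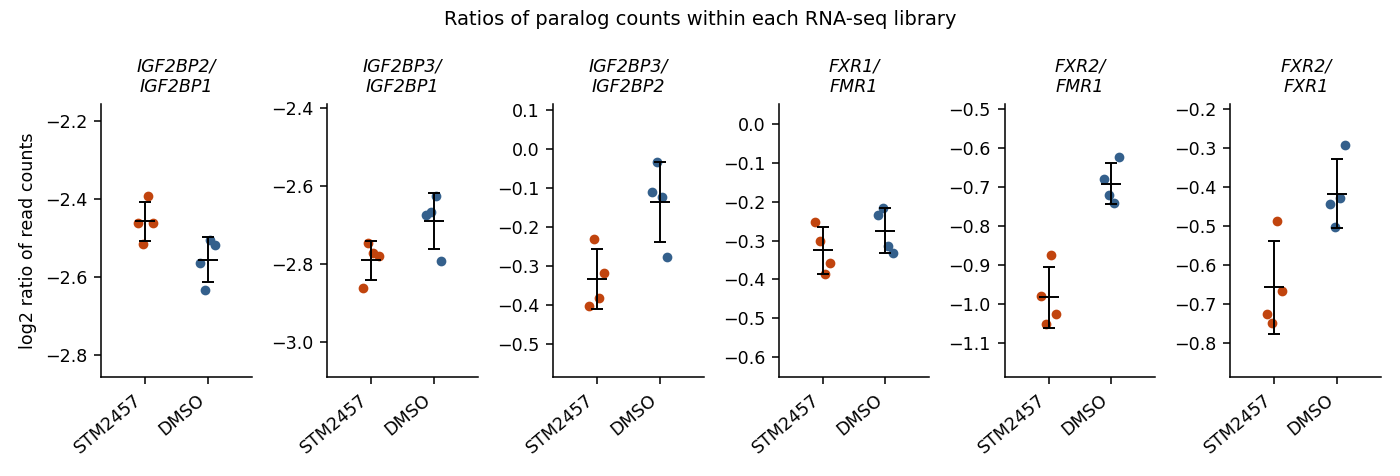
Log2 ratio of the RNA counts of 2 paralogs in each RNA-seq library, STM2457 left of DMSO, 4 points per arm with bars for the mean and SD, for the 3 IGF2BP ratios and the 3 FMR1-family ratios. FXR2 to FMR1 is the ratio whose arms are separate, at -1.05 to -0.87 with STM2457 against -0.74 to -0.62 with DMSO.

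RBMX (ENSG00000147274.14, chromosome X), a nuclear protein also called hnRNP G that takes part in splicing, rose in RNA relative to the bulk of the genes. It had 588, 597, 576 and 589 CPM with STM2457, against 549.8, 545, 535 and 526 CPM with DMSO. All STM2457 libraries were above all DMSO libraries. RBMX averaged 588 ± 8.99 CPM with STM2457 and 539 ± 10.5 CPM with DMSO (SD, n = 4 each), a log2 fold change of 0.12 (SE 0.02, adjusted p = 0.000492), and with spike-in scaling the change was -0.07 (adjusted p = 0.231). In the RNA columns of the series table, as normalized by the authors, RBMX was at -0.02 (limma, adjusted p = 0.438), so its direction depends on the source and the scaling. RBMX has 8 annotated copies in the count files, with 7.12% of its number of counts. RBMXL1 is among them and holds most of those counts, at 48.0 CPM with STM2457 and 31.8 CPM with DMSO. Reads that match both RBMX and a copy may be split between them. HNRNPC has 13 such copies, with 0.161% of its number of counts. Footprints, and so the efficiency of RBMX, may be affected in the same way, which was not tested.

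RBMX footprints lay the other way, though without passing. The RBMX signal was 1401 and 1117 with STM2457, against 1497 and 1446 with DMSO, from 286 to 465 reads per library. Both STM2457 libraries were below both DMSO libraries, STM2457 replicate 1 stood 25.5% above replicate 2, and the log2 fold change was -0.23 (95% interval -0.48 to 0.02, adjusted p = 0.226). With STM2457 replicate 2 as the lone library of its arm the RBMX footprint change was -0.40 (adjusted p = 0.0444, limma), and with replicate 1 as the lone library it was -0.07 (adjusted p = 0.833, limma).

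HNRNPC (ENSG00000092199.17, chromosome 14), which binds uridine tracts on nascent transcripts, did not pass in RNA. It had 901, 903, 833 and 871 CPM with STM2457 and 877, 893, 849.7 and 838 CPM with DMSO, with a log2 fold change of 0.02 (95% interval -0.04 to 0.09, adjusted p = 0.598). The arms overlapped, and replicates 3 and 4 were lower than replicates 1 and 2 in both arms. HNRNPC footprints were at 7714 and 6431 with STM2457 and 7557 and 8237 with DMSO, a log2 fold change of -0.16 (95% interval -0.34 to 0.01, adjusted p = 0.232). STM2457 replicate 1 stood 20.0% above replicate 2. The HNRNPC footprint change was -0.29 with replicate 2 as the lone STM2457 library (adjusted p = 0.0161, limma) and -0.03 with replicate 1 as the lone one (adjusted p = 0.891, limma).

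HNRNPA2B1 (ENSG00000122566.21, chromosome 7), an abundant nuclear RNA-binding protein, had the most footprint reads of the 10 genes, 15251 to 20670 per library. Its RNA was at 2103, 2194, 1958 and 2040.0 CPM with STM2457 and 2000.1, 2049.7, 1951 and 1915 CPM with DMSO. These arms overlapped, and the log2 fold change was 0.07 (95% interval -0.01 to 0.14, adjusted p = 0.119). It passed with replicates 1 and 2 alone (0.07, adjusted p = 0.0351) and without STM2457 replicate 3 (0.09, adjusted p = 0.0166), and it turned to -0.13 with spike-in scaling. HNRNPA2B1 footprints were at 72200 and 59546 with STM2457 and 66527 and 76689.5 with DMSO, so that the STM2457 libraries held both a value inside and one below the DMSO range. The footprint log2 fold change was -0.12 (95% interval -0.28 to 0.03, adjusted p = 0.314), and STM2457 replicate 1 was 21.3% above replicate 2. The HNRNPA2B1 footprint change was -0.26 with replicate 2 as the lone STM2457 library (adjusted p = 0.00307, limma) and 0.016 with replicate 1 as the lone one (adjusted p = 0.936, limma).

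PRRC2A (ENSG00000204469.12, chromosome 6), a large cytoplasmic RNA-binding protein, rose in RNA relative to the bulk of the genes. It had 753, 716, 704 and 741 CPM with STM2457, against 663, 671, 661 and 692 CPM with DMSO. The lowest STM2457 library was above the highest DMSO library. PRRC2A averaged 728 ± 22.3 CPM with STM2457 and 672 ± 13.9 CPM with DMSO (SD, n = 4 each), a log2 fold change of 0.12 (SE 0.03, adjusted p = 0.00249), and -0.08 with spike-in scaling (adjusted p = 0.174). PRRC2A passed with replicates 1 and 2 alone (0.13, adjusted p = 0.00166) and not with replicates 3 and 4 alone (0.10, adjusted p = 0.0625). PRRC2A footprints, at 8094 and 9007 with STM2457 and 9009 and 8969 with DMSO, had a log2 fold change of -0.07 (95% interval -0.24 to 0.09, adjusted p = 0.629).

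Relative to the spike-ins, 7 of the 10 readers passed and all 7 were lower, where 59.2% of all genes passed, 12.1% higher and 47.1% lower. These were FXR2 (-0.44), IGF2BP3 (-0.33), IGF2BP1 (-0.23), FXR1 (-0.20), HNRNPC (-0.18), FMR1 (-0.15) and HNRNPA2B1 (-0.13). IGF2BP2 (-0.13, adjusted p = 0.0797), RBMX and PRRC2A did not pass. Without STM2457 replicate 4, the library with the highest spike-in share, the median gene moved by -0.16. In that fit 6 of the 10 readers passed, all lower, where 9981 of 18066 genes passed, 2464 higher and 7517 lower. HNRNPA2B1 was at -0.09 there (adjusted p = 0.0797). FXR2 and IGF2BP3 thus passed in the same direction under both scalings, and RBMX and PRRC2A passed under TMM scaling alone. Both scalings use the same counts, and spike-in scaling moved all 10 readers down by a similar amount. FXR2 went from -0.24 to -0.44 and RBMX from 0.12 to -0.07. Passing under both scalings is therefore not separate support for a change.

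**Figure D4:**
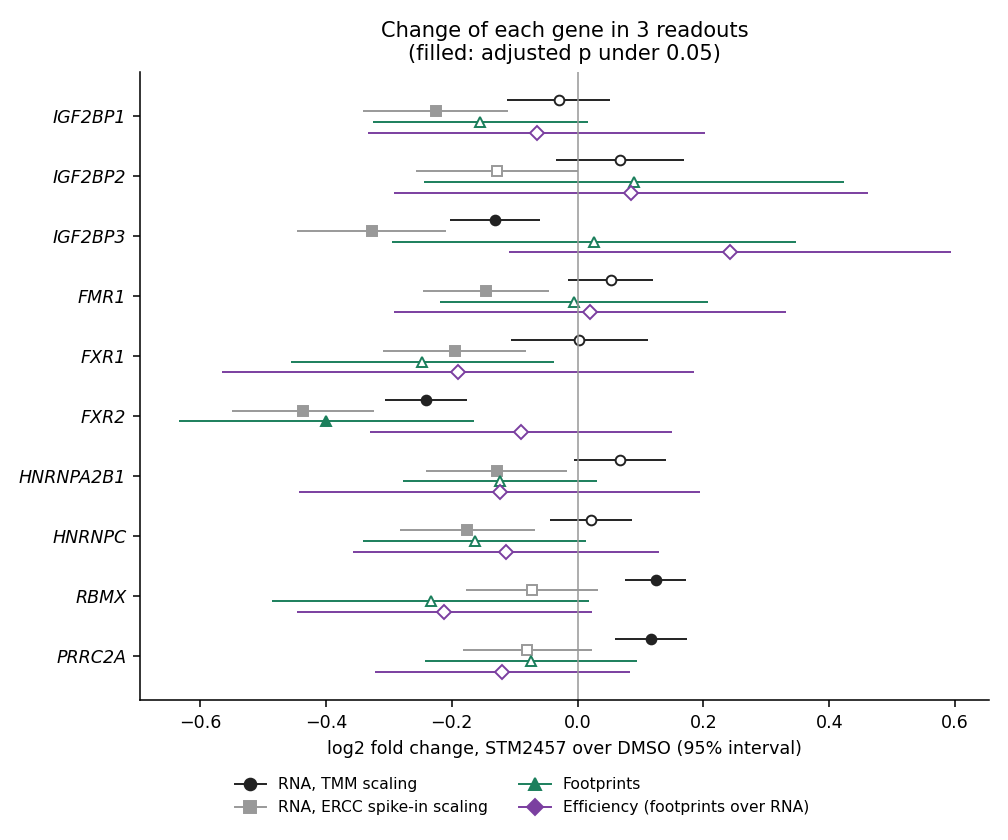
Log2 fold change (STM2457 over DMSO) of the 10 readers in RNA with TMM scaling (circles), RNA with spike-in scaling (squares), footprints (triangles) and efficiency (diamonds), with 95% intervals as bars, a line at 0 and filled symbols for an adjusted p under 0.05. FXR2 lies at -0.24 in RNA with TMM scaling and -0.40 in footprints with both intervals below 0, and the efficiency intervals of all 10 readers span 0.

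Footprints were lower in both STM2457 libraries than in both DMSO libraries for 4 of the 10 readers, IGF2BP1, FXR1, FXR2 and RBMX, and higher for 0 of 10. Among all 10906 genes the arms of 54% did not overlap, 28.4% with STM2457 below and 25.7% above. The median footprint change over the 10 readers was -0.14, against -0.025 over all genes tested. Efficiency, the footprint change minus the RNA change of the same table, passed for 0 of the 10 readers, where 1.04% of all genes passed in limma with a weight per assay. At an unadjusted p under 0.05 the count was also 0 in that fit, against 9.4% of all genes. On counts and recovered reads edgeR gave an unadjusted p of 0.00444 for RBMX (log2 change -0.30, adjusted p = 0.0788) and 0.0384 for PRRC2A, where 17.8% of all genes were under 0.05.

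Efficiency changes were negative for 7 readers and positive for 3, with a median of -0.10 against 0.01 over all genes tested. IGF2BP3 was at 0.24 (95% interval -0.11 to 0.59, adjusted p = 0.742). RBMX was at -0.21 (95% interval -0.45 to 0.02, adjusted p = 0.598) and FXR1 at -0.19 (95% interval -0.56 to 0.18). Leaving out 1 Ribo-seq library gave 0.10 to 0.38 for IGF2BP3, -0.38 to -0.05 for RBMX and -0.27 to -0.11 for FXR1, so the order among these genes is not settled. FXR2 was at -0.09 (95% interval -0.33 to 0.15), so its footprints and RNA were both lower and their ratio did not pass. The remaining values were -0.12 for HNRNPA2B1, -0.12 for PRRC2A, -0.11 for HNRNPC, -0.06 for IGF2BP1, 0.02 for FMR1 and 0.08 for IGF2BP2. The intervals of this fit reached 0.20 to 0.38 to either side. Those of the edgeR interaction were narrower, and for RBMX the edgeR interval ran from -0.50 to -0.11. The edgeR fit gives both assays 1 spread per gene, whereas the limma weights were 1.95 for RNA-seq and 0.263 for Ribo-seq. The edgeR intervals may therefore be too narrow. Its RNA values were the gene counts, where RBMX was at 0.12, against -0.02 in the RNA columns of the series table.

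Levels of efficiency differed far more between the readers than between the arms. The authors' deposited efficiency is their mean footprint signal over their mean RNA signal, and those RNA means match a mean without replicate 4. For IGF2BP1 it was 3.05 with STM2457 and 3.26 with DMSO, above 98.4% and 98.7% of the genes listed. The authors' deposited table put RBMX at 0.176 with STM2457 and 0.201 with DMSO, above 2.64% and 2.92% of the genes. It put HNRNPA2B1 at 1.91 with STM2457 and 2.06 with DMSO, and FMR1, FXR1, FXR2 and IGF2BP3 between 0.973 and 1.33 with STM2457 and between 0.965 and 1.30 with DMSO. HNRNPC, PRRC2A and IGF2BP2 were between 0.508 and 0.622 with STM2457 and between 0.550 and 0.6005 with DMSO in the authors' deposited table. IGF2BP1 and IGF2BP2 thus lay at opposite ends of the IGF2BP family in this ratio, in either arm. What the RNA columns of the series table count is not given in the sources used here, and ranks between genes depend on it. With DMSO, IGF2BP1 and FXR1 had mean RNA signals of 2350 and 2395 over all 4 libraries in those columns. The authors' own means for these genes with DMSO were 2347 and 2438. The limma fits of efficiency used all 4 libraries. Mean gene counts of IGF2BP1 and FXR1 with DMSO were 20766 and 5919.

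The RNA columns of the series table gave lower log2 fold changes than the gene counts, by a median of -0.07 over the genes in both. There FXR2 was at -0.31 (adjusted p = 1.64e-06, limma) and IGF2BP3 at -0.22 (adjusted p = 0.000513, limma), both lower than in the gene counts. IGF2BP1 also passed there, at -0.09 (adjusted p = 0.0414, limma), and PRRC2A did not, at 0.05 (adjusted p = 0.119, limma), where 62% of the 10906 genes passed.

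Other genes of the readers' pathways came from 7 lists, and each count is of genes past the RNA test of all genes, whose median change was 0.00. Over all genes 26.2% were higher and 21.6% lower, and with spike-in scaling 12.1% higher and 47.1% lower, and each count is to be read against these shares. Close paralogs of the readers had 3 higher and 2 lower of 9 tested, with a median of 0.02, and 2 higher and 5 lower with spike-in scaling. Of all genes 47.8% were called, and 59.2% with spike-in scaling. HNRNPA0 rose to 379 ± 8.85 CPM with STM2457, against 276 ± 2.53 CPM with DMSO (SD, n = 4 each), a log2 fold change of 0.46. RBMXL1, a retrogene copy of RBMX, rose to 48.0 ± 3.07 CPM with STM2457, against 31.8 ± 0.484 CPM with DMSO (SD, n = 4 each), a log2 fold change of 0.59 (adjusted p = 2.06e-07), and its reads may be shared with RBMX. HNRNPA1 was at 0.12 and at -0.08 with spike-in scaling, where it did not pass.

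YTH readers and other proposed m6A binders had 7 higher and 1 lower of 12, with a median of 0.27, where 26.2% of all genes were higher and 21.6% lower. With spike-in scaling 5 were higher and 4 lower, where 12.1% of all genes were higher and 47.1% lower. YTHDF2, which recruits the deadenylation machinery, rose by 1.60 on the log2 scale in RNA and by 1.69 in footprints. YTHDF3 rose by 0.84 in RNA and 1.13 in footprints, and YTHDF1 by 0.79 in RNA and 0.87 in footprints. The largest change among the 10 readers was that of FXR2, at -0.24. The difference between the families was not tested.

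IGF2BP partner proteins had 3 higher and 2 lower of 8, with a median of 0.03, where 47.8% of all genes were called. With spike-in scaling 0 were higher and 4 lower, where 59.2% of all genes were called. MATR3 has 2 records under its symbol, and the one with more counts, at 4.91 ± 0.485 CPM with STM2457 and 4.85 ± 0.742 CPM with DMSO (SD, n = 4 each), stands for it here and is uncertain. YBX1, a cold-shock protein found in the same particles, was at 0.19 and at 0.00 with spike-in scaling, HNRNPU fell by 0.22, and PABPC1, the cytoplasmic poly(A)-binding protein, was at 0.10 and at -0.09 with spike-in scaling. Without STM2457 replicate 4, DMSO replicate 1 or DMSO replicate 2 the count of this list was 2 higher and 1 lower. In these 3 fits 7790 to 7964 genes were called of 18018 to 18066 tested. Among mRNAs described as bound by IGF2BP proteins 4 were higher and 4 lower of 17 tested, with a median of 0.01, close to the 47.8% of all genes called. With spike-in scaling 3 were higher and 11 lower, where 12.1% of all genes were higher and 47.1% lower. MYC, whose mRNA IGF2BP1 is known to stabilize, rose to 308 ± 9.31 CPM with STM2457, against 128 ± 2.46 CPM with DMSO (SD, n = 4 each), a log2 fold change of 1.27, and its footprints rose by 1.26. PPP1R9B rose by 0.54 and BTRC, an F-box protein, by 0.32.

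FMRP partner proteins had 6 higher and 3 lower of 12, with a median of 0.13, where 26.2% of all genes were higher and 21.6% lower. With spike-in scaling 2 were higher and 4 lower, where 59.2% of all genes were called. USP10, a deubiquitinase of stress granules, rose by 0.76 in RNA and 0.50 in footprints, and NUFIP2 rose by 0.50 in RNA and 0.68 in footprints. RANBP9 fell by 0.27 in RNA and by 0.42 in footprints. Among mRNAs described as bound by FMRP, many of them known from mouse brain, 7 were higher and 2 lower of 14 tested, with a median of 0.09, where 26.2% of all genes were higher and 21.6% lower. With spike-in scaling 1 was higher and 6 lower, where 12.1% of all genes were higher and 47.1% lower. EEF2, the translocation factor of elongation, was at 0.15 and at -0.05 with spike-in scaling, and PPP2CA was at 0.16 and at -0.04. ARC, an immediate early gene, was at 6.32 ± 0.588 CPM with STM2457 and 4.38 ± 0.520 CPM with DMSO (SD, n = 4 each), a log2 fold change of 0.53. Without DMSO replicate 2 this list had 5 higher and 0 lower, where 4390 of 18044 genes were higher and 3574 lower.

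Other core hnRNP proteins had 2 higher and 5 lower of 13, with a median of -0.07, close to the 47.8% of all genes called. With spike-in scaling 2 were higher and 11 lower, where 12.1% of all genes were higher and 47.1% lower. HNRNPF, which binds G tracts, rose by 0.67 in RNA and 0.63 in footprints, and PCBP1, a poly(C)-binding protein, rose by 0.41 in RNA. HNRNPH2 fell by 0.59 in RNA and 0.92 in footprints. Some of these genes stand in 2 lists, among them ELAVL1, SYNCRIP, G3BP1, G3BP2 and HNRNPU, so the lists are not independent of one another.

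**Figure D5:**
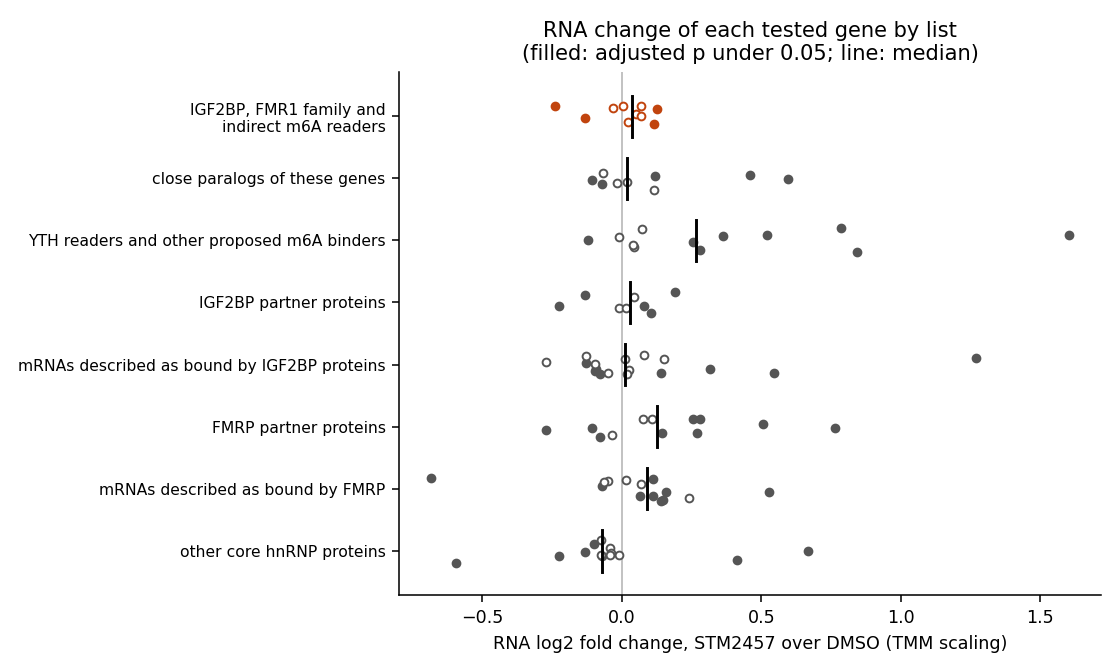
RNA log2 fold change (STM2457 over DMSO) of each tested gene of the 10 readers and of the 7 other lists, with the median of each list as a line and filled points for an adjusted p under 0.05. The 10 readers lie within -0.24 to 0.12, while the YTH list reaches 1.60 at YTHDF2 and the list of mRNAs described as bound by IGF2BP proteins 1.27 at MYC.

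Across the 8 RNA-seq libraries the gene whose log2 CPM was most like that of FXR2 was LRP2 (Pearson r = 0.995), that most like RBMX was GGPS1 (r = 0.998), that most like IGF2BP3 was COA5 (r = 0.986), and that most like PRRC2A was ZNF736 (r = 0.985). These values describe libraries that share their arm and their depth, with no test. Above an r of 0.95 stood 1059 genes for RBMX and 496 for FXR2 of the 17729 compared, but 62 for IGF2BP3, 41 for PRRC2A and 2 to 44 for the other 6 readers.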

How the data were processed

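The 12 libraries comprise 8 of RNA-seq and 4 of Ribo-seq, grouped by the treatment in their titles. For RNA-seq the authors deposited unnormalized counts per gene, ERCC sequences included. The series table, deposited by the authors, holds a normalized signal per library on a linear scale, the authors' ratio of footprint to RNA signal (efficiency), and its log2 change. Per the submitters' processing notes, STAR 2.7.3a, UMI-tools 1.1.2, Subread 2.0.3 with featureCounts and DESeq2 were among the tools and GRCh38.p12 was the build, and the notes give these no role or order. How reads with several matches were counted is not given in the sources used here. Depth was 43291730 to 51645739 counts per RNA-seq library and 3198063 to 4711513 recovered footprint reads per Ribo-seq library.

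RNA was tested with edgeR 4.0.16 (quasi-likelihood, TMM, filterByExpr) in R 4.3.3 with ERCC sequences left out. Standard errors are the log2 fold change over the root of the F statistic. Footprints and efficiency were tested with limma 3.58.1 on log2(signal + 1), a scale that understates changes of low genes, for the 10906 genes that averaged 10 recovered reads or more. All 10 readers passed the filters. In the Ribo-seq columns 100% of the values were within 0.1 of a whole number of reads, and edgeR on those reads called 1719 genes. Efficiency was the interaction of assay and treatment with a weight per assay. Adjusted p is Benjamini-Hochberg over all genes tested, called under 0.05. Alternatives were DESeq2 1.42.0, spike-in scaling, other filters and pseudocounts, a replicate block and omission of libraries, and spike-in scaling without STM2457 replicate 4 and limma on the table's RNA columns were chosen after seeing the data. Fits were tested on simulated data.

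The 10 readers and the lists were chosen with earlier results of these data known. All 10 readers were named, with the 3 genes of smallest RNA p from each other list and the most alike gene by Pearson r. PRRC2B was not analysed here, and of 2 records under 1 symbol the one with more counts over all libraries was used. Whether replicates were separate cultures is not in the labels, and the p-values therefore cover only the spread among libraries, which may be technical. Promoter windows are from RefSeq. Some marker and list results are not reported here.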

Additional observations from a re-analysis of the deposited data

How the results depend on the processing

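Calls in RNA moved with the scaling: 7 of the 10 readers passed with spike-in scaling. Its log2 fold changes turned sign for IGF2BP2 (-0.13), FMR1 (-0.15), FXR1 (-0.20), HNRNPA2B1 (-0.13), HNRNPC (-0.18), RBMX (-0.072) and PRRC2A (-0.080), and without STM2457 replicate 4 for IGF2BP2 (-0.078), FMR1 (-0.12), FXR1 (-0.16), HNRNPA2B1 (-0.089), HNRNPC (-0.14), RBMX (-0.041) and PRRC2A (-0.055). Spike-in scaling moved the median gene from 0.00 to -0.19 and the readers by a similar amount, so small rises turned sign with that shift. RBMX also turned to -0.022 in the RNA columns of the series table. The cause of the shift and that of the RBMX difference were not tested. Leaving out 1 Ribo-seq library, which leaves 1 in its arm, gave 0 to 3 readers called in footprints, 1004 to 1464 footprint calls over all genes against 1715, and 37 to 100 efficiency calls against 113. Efficiency calls over all genes were 825 with a shared spread and 425 with the edgeR interaction, and the readers called numbered 0 in both. With a replicate block 5 of the 10 readers passed in RNA (HNRNPA2B1 in addition, adjusted p = 0.00492), 1 in footprints and 0 in efficiency, and 9542, 1719 and 118 genes were called. Same-numbered RNA-seq libraries correlated by 0.076 to 0.227 in their deviations and Ribo-seq libraries by 0.006, so the numbers were not taken as pairs. Deviations within replicates 1 and 2 and within 3 and 4 correlated by 0.076 to 0.275, and between these pairs by -0.256 to -0.085. IGF2BP2 and IGF2BP3 had the fewest footprint reads.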

Other observations

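The RBMX change in the RNA columns of the series table was further below that in the gene counts than for most genes. Its log2 fold change was 0.15 below that in the gene counts, and 5.83% of the genes in both sources had a lower difference. Part of this gap is shared by genes in general, whose median difference was -0.07 (SD over genes 0.083). Genes that differed as much upward were not counted. RBMXL1, its retrogene copy, rose by 0.59 in the gene counts and was at 0.05 in footprints (limma, adjusted p = 0.924). Read sharing between the 2 genes was not tested.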
